A study of Mus musculus with 72 samples.

Results

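This section describes the livers of 12 old DBA2/J female mice (DF), 6 kept on 40% calorie restriction (CR) and 6 on 20% CR, out of 72 liver arrays in the series. The members were the arrays whose signal columns carry the names DF-*-CR40 and DF-*-CR20. The series also holds DF mice fed ad libitum (AL), DBA2/J males (DM), C57BL/6J females (CF) and C57BL/6J males (CM), each at the same feeding levels with 6 arrays per group. The mice were unmodified inbred mice, with restriction starting at an age of 6 months and killing at 23 to 24 months of age. The restricted mice had not been given their daily ration on the day they were killed, whereas AL mice could eat until then. Total liver RNA was hybridised to 1-colour Illumina bead arrays, with 1 mouse per array as the labels give 6 mice per diet group, so that every value below is a mean over all liver cells and the number of arrays limits its precision. The comparison asks whether doubling the restriction changed the liver of this strain and sex.

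Calorie restriction lowers insulin and, between meals, raises the flow of fatty acids from fat tissue to the liver. There the nuclear receptor PPARα binds fatty acids and switches on the genes of their transport and oxidation, among them the Cyp4a ω-hydroxylases and the hormone Fgf21. Macrophages (Kupffer cells), lymphocytes and neutrophils within or passing through the liver add the RNA of interferon and antigen-presentation genes, which tends to increase with age.

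Of 25697 probes, 9255 were tested because they were above background (detection p under 0.01) on at least 6 of the 12 arrays. They covered 6630 genes, each described by its brightest tested probe, and values are normalised log2 intensities, on which a difference of 1 is 2-fold. The 12 arrays had 33.1% to 38.2% of probes above background. Xist was above background on all 12 arrays and the Y-linked genes Eif2s3y, Kdm5d and Uty on none of them. Hc, the complement C5 gene that DBA2/J mice carry in a deficient form, averaged 6.20 in the 40% group and 6.23 in the 20% group, against 9.37 in CF mice over the same 2 diets. The hepatocyte markers Apoa1 and Ttr averaged 14.66 and 13.96 in the 40% group and 14.47 and 13.89 in the 20% group. The array's Fgb probes were above background on none of the 12 arrays, and those of Alb on 2 arrays of the 40% group and 1 of the 20% group.

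One array of the 20% group, DF-64-CR20, stood apart from the rest. It had 485 probes at least 2-fold above and 217 at least 2-fold below the median of the other 5 arrays of its group, while the next array of that group, DF-54-CR20, had 91 above and 98 below. The first principal component of the 12 arrays held 41.2% of the variance and placed DF-64-CR20 at 56.94, with the other arrays between -12.04 and 4.75. Its highest genes relative to its group were Cd52, a lymphocyte surface glycoprotein, at 11.32 against 5.68 to 6.58 in the other 5 arrays, and Cxcl13, a chemokine that attracts B cells, at 11.48 against 5.89 to 7.63. Mzb1, of B and plasma cells, stood at 8.26 against 4.91 to 5.40, and Cd3g, a T cell receptor subunit, at 8.03 against 4.22 to 5.23. The B cell markers Ms4a1 and Ebf1 and the T cell markers Cd4, Cd8a and Cd5 were above background on none of the 12 arrays. The histone gene H2ac24 was also among the highest of DF-64-CR20, at 11.41 against 6.12 to 7.79. Among the genes DF-64-CR20 had low were Dio1, a thyroid hormone deiodinase, at 4.23 against 6.60 to 9.32, and Thrsp, a regulator of lipogenesis, at 6.79 against 8.73 to 9.96. The main comparisons are therefore given with and without this array. On 1 array of the 40% group, DF-109-CR40, exocrine pancreas enzymes stood out, with Cela2a at 9.33 and Try4 at 8.67, against at most 4.42 and 4.26 on the other 11. Of the 8 genes of that list on the array, 1 (Cela1) passed the filter.

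No single gene passed the test between the 40% and the 20% group. With limma and Benjamini-Hochberg adjustment over all tested probes, 0 of 9255 probes had an adjusted p under 0.05, and the smallest was 0.165. Without DF-64-CR20 it was again 0, with a smallest adjusted p of 0.236. Leaving out each array in turn gave 0 or 1 probe, which was Cyp4a14 without DF-58-CR20 (adjusted p = 0.0252), a dimmer probe of Ilvbl without DF-53-CR20 (adjusted p = 0.0492) and Agxt without DF-54-CR20 (adjusted p = 0.0417). At an unadjusted p under 0.05 there were 748 probes, or 8.08%, of which 427 were higher (4.61%) and 321 lower (3.47%) in the 40% group. Without DF-64-CR20 there were 641, or 6.93%, of which 293 were higher (3.17%) and 348 lower (3.76%). On the authors' deposited scale of per-array z-scores, the unadjusted calls were split the other way, with 285 higher and 570 lower.

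The differences were small beside those between restricted and AL mice. The median absolute difference between the 40% and 20% means was 0.11 over the tested probes (0.09 without DF-64-CR20), whereas it was 0.25 between 40% CR and AL and 0.21 between 20% CR and AL (0.22 without DF-64-CR20). The 40% mean was at least 2-fold above the 20% mean for 15 probes and at least 2-fold below for 32, and without DF-64-CR20 for 8 and 11. For 8884 probes, or 96.0%, the 95% interval of the difference lay between -1 and 1, which bounds a difference at less than 2-fold either way. Without DF-64-CR20 this held for 9116 probes, or 98.5%. The remaining probes include genes for which a larger difference could not be told from none with these arrays.

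A fit over all 72 arrays in 12 groups, which borrows its estimate of spread from the other groups, called 3 of 9255 probes (0.0324% of probes, 0.0452% of genes), all higher at 40% CR. Myom1, which encodes a protein of the sarcomere M band, averaged 6.47 ± 0.59 in the 40% group and 5.50 ± 0.24 in the 20% group (SD, n = 6 each), a difference of 0.97 with an adjusted p of 0.00672 in that fit. Ctsz, the lysosomal cathepsin Z, averaged 8.54 ± 0.11 in the 40% group and 7.97 ± 0.19 in the 20% group, a difference of 0.58 with an adjusted p of 0.00672. Lgals4, the galactoside-binding galectin 4, averaged 8.75 ± 0.20 in the 40% group and 7.74 ± 0.66 in the 20% group, with an adjusted p of 0.0225. Each of the 3 had all 40% arrays above all 20% arrays. Without DF-64-CR20, Myom1 and Ctsz were called again, each with an adjusted p of 0.0224, Lgals4 was not (adjusted p = 0.216), and Prom2, a membrane glycoprotein of epithelia, was called as lower at 40% CR (adjusted p = 0.0224). Prom2 averaged 4.62 ± 0.30 in the 40% group, with 1 of 6 arrays above background, and 5.63 ± 0.44 on the other 5 arrays of the 20% group, a difference of -1.01. With DF-64-CR20, 5 of 6 arrays of the 20% group were above background. None of the 4 passed in the test on the 12 arrays alone.

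The genes of fatty acid oxidation and PPARα targets averaged higher at 40% CR in all tested members, though none passed the test singly. Of the 44 genes of the list, 39 were on the array and 32 were tested. All 32 had a mean difference above 0, both with and without DF-64-CR20, where 52.4% and 48.7% of all tested genes did. At an unadjusted p under 0.05, 21 of the 32 were higher and 0 lower, against 4.33% higher and 3.62% lower of all tested genes. Without DF-64-CR20 there were 15 higher and 0 lower, against 3.06% and 3.94%. The median difference of the list was 0.49 (0.40 without DF-64-CR20), and that of all genes was 0.01 (-0.00382 without it). The list was compiled with earlier results of these data known, and no test was made over it.

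Cyp4a14, a fatty acid ω-hydroxylase and a sensitive PPARα target, had the smallest p of all genes. Its levels on the 40% arrays were 12.08, 12.48, 12.41, 12.38, 12.37 and 12.47, against 11.99, 11.14, 10.68, 11.70, 11.30 and 11.10 on the 20% arrays. All 40% arrays lay above all 20% arrays, with DF-64-CR20 the lowest of these. The difference was 1.05 (95% interval 0.66 to 1.43, adjusted p = 0.165), and 0.92 without DF-64-CR20 (adjusted p = 0.236). Such separation without overlap held for 48 of 9255 probes, or 0.519%, and for 1 other gene of the list, Angptl4, an inhibitor of lipoprotein lipase, with a difference of 0.50 (0.42 without DF-64-CR20). It also held for Abcd3, a peroxisomal membrane transporter outside the list that was chosen after its values were seen, with 0.58 (0.40).

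Acot1, a cytosolic acyl-CoA thioesterase, had the largest difference of the list. The 40% arrays read 10.96, 10.51, 11.27, 10.64, 10.91 and 11.40, against 8.90, 9.48, 7.65, 10.83, 9.47 and 7.25 on the 20% arrays. One 20% array, DF-52-CR20, reached the 40% range, while DF-64-CR20 and DF-54-CR20 were the lowest. The difference was 2.02 ± 0.47 (SE, adjusted p = 0.489), and 1.76 without DF-64-CR20 (adjusted p = 0.505). A second Acot1 probe gave 1.85.

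Fgf21, the fasting hormone of the liver, read 7.43, 7.22, 7.59, 7.46, 7.73 and 8.13 on the 40% arrays, against 5.35, 6.76, 5.04, 7.44, 6.95 and 4.67 on the 20% arrays. Here too the 20% arrays were spread over a wide range and DF-52-CR20 lay among the 40% arrays. The difference was 1.56 ± 0.41 (adjusted p = 0.490), and 1.36 without DF-64-CR20 (adjusted p = 0.525). Pdk4, a kinase that blocks the entry of pyruvate into the citric acid cycle, averaged 10.01 ± 0.62 in the 40% group and 8.14 ± 1.49 in the 20% group, a difference of 1.86 (1.54 without DF-64-CR20). Crat, carnitine acetyltransferase, averaged 7.25 ± 0.31 in the 40% group and 6.42 ± 0.44 in the 20% group, a difference of 0.83 (adjusted p = 0.489) that was 0.73 without DF-64-CR20. Plin4, a coat protein of lipid droplets outside this list, had one of the 3 smallest p-values of all genes, averaging 8.61 ± 0.32 in the 40% group and 7.50 ± 0.43 in the 20% group (difference 1.11, adjusted p = 0.165, and 1.00 without DF-64-CR20). The related droplet protein Plin2 averaged 9.54 ± 0.52 in the 40% group and 8.34 ± 1.27 in the 20% group, a difference of 1.20 (1.06 without it). The Acot and Cyp4a genes are families of close relatives, whose probes may share signal. A second probe of Acot2 gave -0.16 where the brightest gave 1.04.

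The spread of this list lay within the 20% group. The mean level of the 32 members ranged from 9.35 to 9.66 on the 40% arrays, with a median of 9.49, and from 8.10 to 9.43 on the 20% arrays, with a median of 9.05. The lowest 2 arrays were DF-54-CR20 at 8.10 and DF-64-CR20 at 8.26. The other 4 arrays of the 20% group lay between 9.03 and 9.43, of which only DF-52-CR20 reached the 40% range. Without DF-54-CR20, 16 of the 32 members were higher at an unadjusted p under 0.05, against 437 of all 9255 tested probes. DF-54-CR20 did not share the lymphocyte signal of DF-64-CR20, with Mzb1 at 5.40 and Cd3g at 4.67. In AL mice the mean level of the list ranged from 7.48 to 8.16, a range that holds DF-54-CR20. Single members of that array did not all lie at the AL level. Its Cyp4a14 (11.10) and Cyp4a31 (9.21) were above all AL arrays, which reached at most 8.02 and 7.89. Its Fgf21 (4.67) and Plin2 (6.31) were below all AL arrays, which read at least 5.14 and 6.93.

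**Figure D1:**
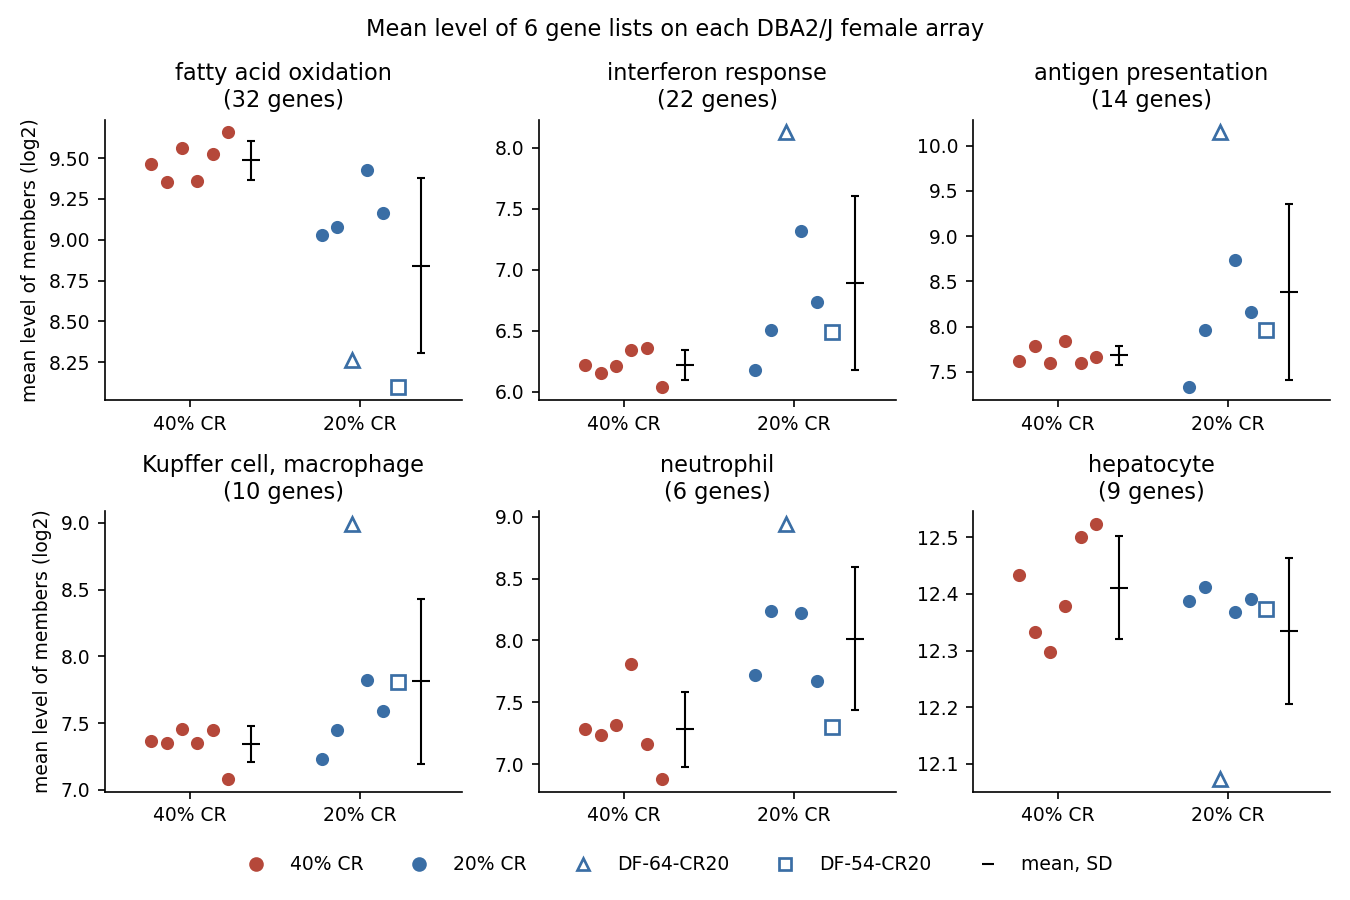
Mean normalised log2 intensity of the tested members of 6 gene lists on each array (vertical axis), with 40% CR arrays in red and 20% CR arrays in blue. Bars give the mean and SD of 6 arrays. The open triangle is DF-64-CR20 and the open square DF-54-CR20, the 2 lowest arrays in fatty acid oxidation at 8.26 and 8.10. DF-64-CR20 is highest in the 4 immune lists and lowest in the hepatocyte list.

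**Figure D2:**
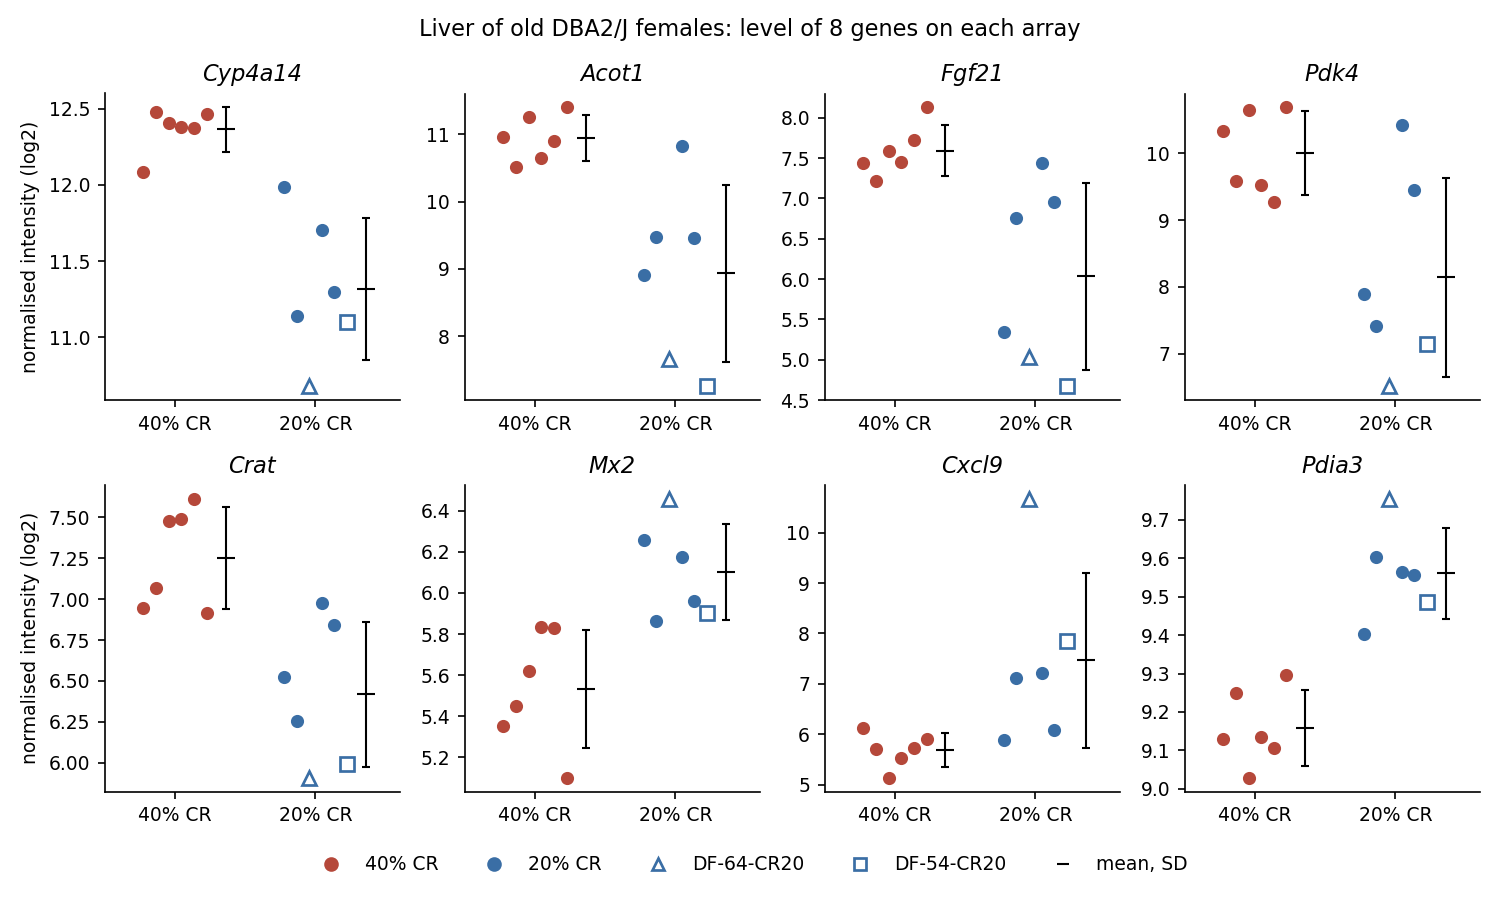
Normalised log2 intensity of 8 genes on each array, 40% CR in red and 20% CR in blue, with the mean and SD of 6 arrays. The 40% arrays of Cyp4a14 lie above all 20% arrays, and those of Mx2 and Pdia3 below all of them, while Acot1, Fgf21, Pdk4, Crat and Cxcl9 overlap.

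Interferon-responsive genes averaged lower at 40% CR. Of 38 genes in the list, 35 were on the array and 22 tested, and the mean difference was below 0 for all 22, with and without DF-64-CR20. At an unadjusted p under 0.05, 0 were higher and 11 lower, against 3.62% lower of all tested genes. Without DF-64-CR20 they were 0 and 9, against 3.94% lower of all tested genes. Without DF-104-CR40, the array lowest in this list, 7 were lower, against 229 of all 9255 tested probes. The median difference was -0.53, and -0.32 without DF-64-CR20. It was negative in the other mice as well, at -0.27 in CF, -0.47 in CM and -0.30 in DM mice. In these, 1, 2 and 5 of the 22 members had a difference above 0. Mx2, an antiviral GTPase, read 5.35, 5.45, 5.62, 5.83, 5.83 and 5.10 on the 40% arrays, against 6.26, 5.87, 6.46, 6.17, 5.96 and 5.90 on the 20% arrays. The groups did not overlap, and the difference was -0.57 ± 0.14 (adjusted p = 0.489) and -0.50 without DF-64-CR20 (adjusted p = 0.525). Cxcl9, a chemokine induced by interferon γ, read 6.13, 5.70, 5.14, 5.53, 5.74 and 5.91 on the 40% arrays, against 5.88, 7.11, 10.67, 7.21, 6.08 and 7.85 on the 20% arrays. The highest of these was DF-64-CR20, and the difference of -1.78 was -1.14 without it. Eif2ak2, the double-stranded RNA kinase, differed by -0.42 and Oas1g, an oligoadenylate synthetase, by -0.81, or by -0.31 and -0.55 without that array.

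The antigen-presentation genes differed less once DF-64-CR20 was left out. Of 14 tested members, 0 had a mean difference above 0, and 1 without the array, and the median difference was -0.48, or -0.28 without it. At an unadjusted p under 0.05, 3 were lower (3.62% of all tested genes), and 5 without DF-64-CR20 (3.94%). H2-Ab1, a class II major histocompatibility chain, read 7.80, 8.36, 7.59, 8.66, 7.50 and 8.47 on the 40% arrays, against 7.33, 8.78, 13.01, 10.01, 8.96 and 9.15 on the 20% arrays. DF-64-CR20 was the array at 13.01, and the array lowest of all 12, DF-58-CR20, was also in the 20% group. The difference in H2-Ab1 was -1.48 with that array and -0.78 without it. Cd74, the class II invariant chain, differed by -1.39 and by -0.75 without it, and H2-Eb1 by -1.53 and -0.76. Nlrc5, a transactivator of class I genes, differed by -0.56 and -0.36.

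The Kupffer cell and neutrophil lists also averaged lower at 40% CR, while few lymphocyte markers could be tested. The Kupffer cell and macrophage list, with 10 tested of 15 genes on the array, had a mean level between 7.08 and 7.45 on the 40% arrays and between 7.23 and 7.82 on the 20% arrays other than DF-64-CR20, which stood at 8.99. Its median difference was -0.54, and -0.23 without that array. At an unadjusted p under 0.05, 0 members were higher and 1 lower, with and without DF-64-CR20. Of all tested genes 3.62% were lower with that array and 3.94% without it. Vsig4, a complement receptor of Kupffer cells, differed by -0.55, C1qc by -0.75, C1qb by -0.74 and Adgre1 by -0.54, and without DF-64-CR20 by -0.35, -0.33, -0.32 and -0.25. The neutrophil list, with 6 tested of 14 on the array, had a mean level of 6.88 to 7.81 on the 40% arrays and 7.30 to 8.24 on the other 5 arrays of the 20% group, with DF-64-CR20 at 8.94. Of its untested members, Ltf, Ngp, Camp, Elane and Mpo were each above background on 0 arrays of the 40% group and 1 of the 20% group. Ctsg, Mmp8 and Cxcr2 were so on 0 arrays of either group. Lcn2, a tested member, is also in the acute phase list. At an unadjusted p under 0.05, 4 members were lower, and 2 without DF-64-CR20. S100a8, a calgranulin of neutrophils, read 7.72, 7.42, 7.40, 8.91, 7.42 and 7.65 on the 40% arrays, against 8.74, 9.85, 11.01, 9.22, 8.18 and 7.82 on the 20% arrays. It differed by -1.38, and by -1.01 without DF-64-CR20, with one 40% array, DF-110-CR40, within the 20% range. S100a9, Csf3r and Retnlg differed by -0.95, -0.36 and -0.79, and without DF-64-CR20 by -0.67, -0.31 and -0.63. Csf3r was dim, above background on 1 of 6 arrays of the 40% group and 5 of 6 of the 20% group. Mzb1, the 1 tested marker of B and plasma cells, differed by -0.47, and by 0.06 without DF-64-CR20. Of the 2 tested T and NK cell markers, 1 had a mean difference above 0, with and without that array. The hepatocyte list had a mean level of 12.30 to 12.52 on the 40% arrays and 12.37 to 12.41 on the other 5 of the 20% group, with DF-64-CR20 at 12.07. In these whole-liver samples fewer immune cells and less RNA per cell cannot be told apart, and the part of the marker levels in the interferon and antigen-presentation differences was not tested.

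**Figure D3:**
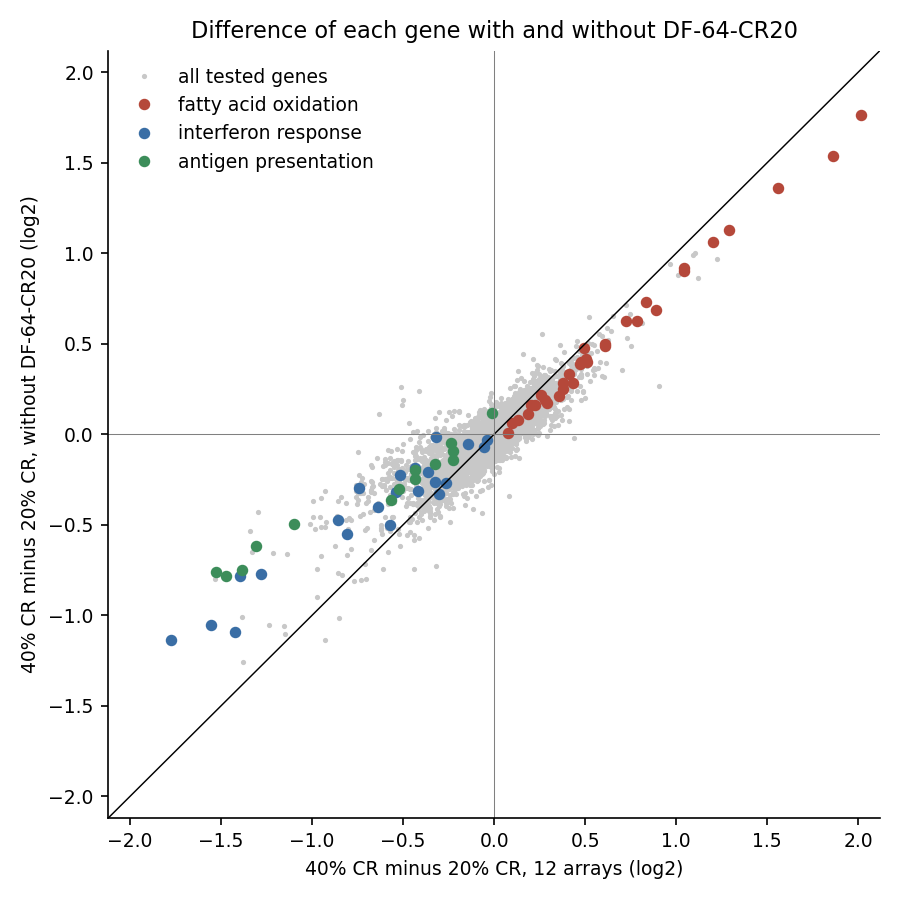
Difference between the 40% and 20% CR means of each of 6630 genes (log2) with all 12 arrays (horizontal axis) and without DF-64-CR20 (vertical axis), with the line of equal values. Fatty acid oxidation genes in red keep close to the line (list medians 0.49 and 0.40), whereas antigen-presentation genes in green (-0.48 and -0.28) and interferon genes in blue (-0.53 and -0.32) move towards 0 without the array.

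Of the genes of endoplasmic reticulum stress, Pdia3, a disulfide isomerase of glycoprotein folding, had the smallest p. It read 9.13, 9.25, 9.03, 9.13, 9.11 and 9.30 on the 40% arrays, against 9.40, 9.60, 9.75, 9.56, 9.55 and 9.49 on the 20% arrays. All 40% arrays lay below all 20% arrays, and the difference of -0.40 ± 0.09 (adjusted p = 0.489) was -0.36 without DF-64-CR20 (adjusted p = 0.414). Its partner calreticulin, Calr, differed by -0.46 both with and without the array, and Pdia4 by -0.27 and -0.32. Ddit3, the stress-induced transcription factor CHOP, differed the other way, by 0.36 and by 0.49 without DF-64-CR20. Over the 17 tested genes of this list the median difference was -0.07 (-0.06 without the array), and the mean level overlapped between the 40% arrays (8.08 to 8.32) and the 20% arrays (7.99 to 8.31). Without DF-64-CR20 the 20% arrays ranged from 8.23 to 8.31, and all 40% arrays but DF-103-CR40 lay below them. At an unadjusted p under 0.05, 1 was higher and 3 lower, against 4.33% and 3.62% of all tested genes. Without DF-64-CR20 these were 1 and 5, against 3.06% and 3.94%.

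The other genes with the smallest p-values had mixed functions and did not pass. Ilvbl, an enzyme of 2-hydroxyacyl-CoA cleavage, averaged 8.71 ± 0.10 in the 40% group and 8.35 ± 0.11 in the 20% group, a difference of 0.36 (0.35 without DF-64-CR20), and each of its other 3 tested probes also averaged higher at 40% CR. Scara5, a ferritin receptor, averaged 5.28 ± 0.71 in the 40% group, with 4 of 6 arrays above background, and 6.65 ± 0.62 in the 20% group, a difference of -1.38 (-1.26 without DF-64-CR20). Ugt3a1, a glycosyltransferase, averaged 7.41 ± 0.63 in the 40% group and 8.56 ± 0.45 in the 20% group, a difference of -1.15 (-1.11 without it). Zc3h13, a component of the RNA methylation machinery, averaged 5.87 ± 0.14 in the 40% group and 6.39 ± 0.24 in the 20% group, without overlap between the groups, a difference of -0.52 (-0.55 without it). Ctsc, the cathepsin that activates granule proteases of immune cells, differed by -0.66 (-0.58 without it), with 2 of 6 arrays above background in the 40% group and 6 of 6 in the 20% group. Gabarapl1, an autophagosome protein, averaged 11.38 ± 0.18 in the 40% group and 10.96 ± 0.13 in the 20% group, without overlap, a difference of 0.42 (0.38 without it).

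None of the genes of amino acid breakdown or lipid synthesis passed with all 12 arrays. Of 29 tested genes of the urea cycle and amino acid catabolism, 24 had a mean difference above 0 (22 without DF-64-CR20), 4 were higher at an unadjusted p under 0.05 and 0 lower with and without that array, against 4.33% higher of all tested genes with it and 3.06% without it. The median difference was 0.15 (0.07 without it). With all arrays these 4 were Agxt (0.51), which detoxifies glyoxylate, the proline oxidase Prodh (0.54), Hpd (0.33) of tyrosine breakdown and the ornithine aminotransferase Oat (0.45). Without DF-64-CR20 their differences were 0.50, 0.36, 0.25 and 0.49. Agxt read 10.72 on DF-54-CR20, above all 40% arrays (10.42 to 10.69), and at most 9.97 on the other 20% arrays. Without DF-54-CR20 the Agxt difference was 0.66. Of 19 tested lipogenic genes, 2 were higher and 1 lower at an unadjusted p under 0.05 with and without DF-64-CR20, against 4.33% and 3.62% of all tested genes with it and 3.06% and 3.94% without it. Acly, the ATP citrate lyase that supplies acetyl-CoA, differed by -0.35, and the triglyceride-forming acyltransferases Dgat1 and Gpam by 0.31 and 0.28. Without DF-64-CR20 these were -0.33, 0.24 and 0.27.

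The clock list (16 tested) and the growth hormone, IGF and insulin list (13 tested) had 0 members at an unadjusted p under 0.05 in either direction, with and without DF-64-CR20. Dbp, a clock output gene, averaged 8.80 ± 0.41 in the 40% group and 8.45 ± 0.51 in the 20% group (95% interval of the difference -0.14 to 0.85). Per2 differed by 0.14 (interval -0.23 to 0.51) and Arntl by 0.08 (interval -0.31 to 0.46). Igf1, the growth factor secreted by the liver, averaged 11.60 ± 0.13 in the 40% group and 11.60 ± 0.14 in the 20% group, with an interval of -0.21 to 0.20. Pck1, the gatekeeper of gluconeogenesis, differed by 0.21 (interval -0.19 to 0.61), the insulin-repressed Igfbp1 by 0.23 (interval -0.58 to 1.03) and the lipogenic factor Srebf1 by -0.22 (interval -0.51 to 0.07). Cyp7a1, the rate-limiting enzyme of bile acid synthesis, ranged from 6.96 to 9.83 on the 40% arrays and from 7.12 to 11.18 on the 20% arrays, and its interval of -1.52 to 1.38 leaves a difference of more than 2-fold possible either way. Of the female-biased genes, Cyp2b13 differed by 0.17 (interval -0.54 to 0.89). Cyp17a1, a steroid hydroxylase, differed by 1.22, with an interval above 0 (0.34 to 2.11) but an adjusted p of 0.593. Without DF-64-CR20, Dbp differed by 0.25, Per2 by 0.12, Arntl by 0.06, Igf1 by -0.05, Pck1 by 0.10, Igfbp1 by 0.22, Srebf1 by -0.22, Cyp2b13 by 0.18, Cyp7a1 by -0.43 (interval -1.80 to 0.93) and Cyp17a1 by 0.97, and each interval but that of Cyp17a1 (0.17 to 1.77) held 0.

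The AL mice place these values on the range of feeding, as a description with no test. Cyp4a14 averaged 6.27 ± 1.29 in AL mice, 11.32 ± 0.47 at 20% CR and 12.36 ± 0.14 at 40% CR. Dbp averaged 5.32 ± 0.21 in AL mice, 8.45 ± 0.51 at 20% CR and 8.80 ± 0.41 at 40% CR. Fgf21 averaged 5.93 ± 0.47 in AL mice, 6.03 ± 1.16 at 20% CR and 7.59 ± 0.31 at 40% CR. Scara5 averaged 8.07 ± 0.86, 6.65 ± 0.62 and 5.28 ± 0.71 at AL, 20% CR and 40% CR, and Pdia3 10.12 ± 0.28, 9.56 ± 0.12 and 9.16 ± 0.10. The AL mice had eaten up to the time of death, so feeding level and recent feeding cannot be told apart in their values.

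**Figure D4:**
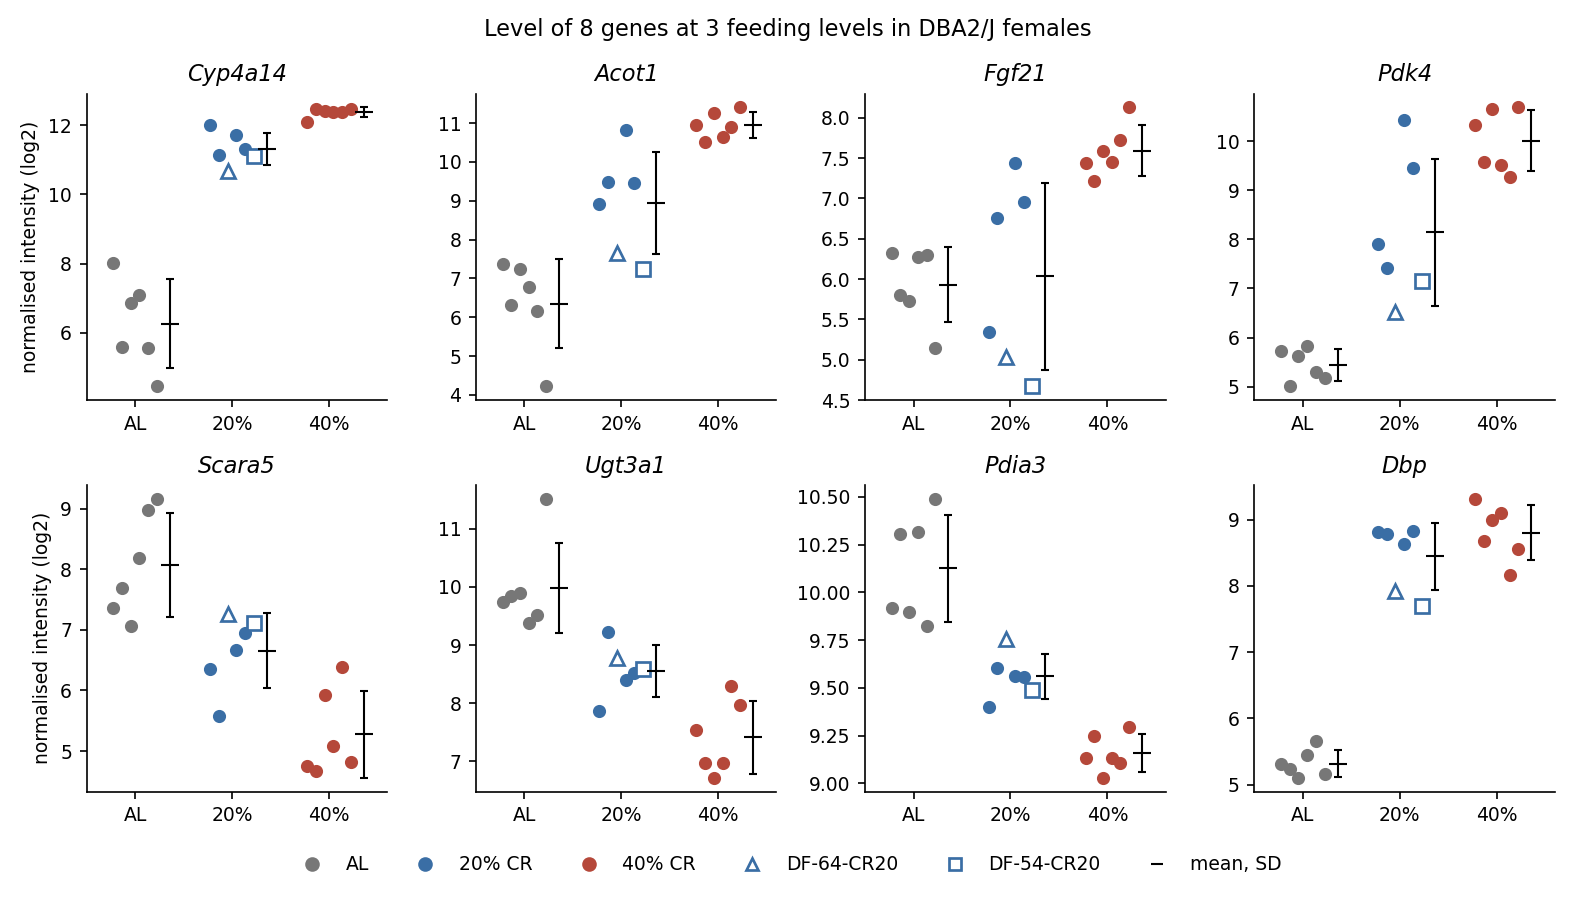
Normalised log2 intensity of 8 genes on each DBA2/J female array at AL, 20% CR and 40% CR, with the mean and SD of 6 arrays. Most of the distance of Cyp4a14 and Dbp from the AL level is already present at 20% CR (11.32 and 8.45), while the mean of Fgf21 at 20% CR (6.03) is near that of AL mice (5.93). The 20% arrays of Fgf21 spread from 4.67 to 7.44, beyond the AL arrays (5.14 to 6.32) on both sides.

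The response to the step between 20% and 40% CR was then compared with that of the other mice, as the difference in DF mice minus that in the others, called the contrast, in the 72-array fit. The 3 comparisons share the DF arrays and so are not independent. In that fit a change between the 2 levels was called for 374 probes (4.04%) in CF mice, 49 (0.529%) in CM mice and 1097 (11.9%) in DM mice. In DF mice it was called for 3 (0.0324%). The tested probes were chosen by detection on the DF arrays alone. The difference in DF mice departed from the mean of the other 3 groups for 173 probes (1.87%), 117 more positive (1.26%) and 56 more negative (0.605%) in DF mice. Without DF-64-CR20 it did so for 40 (0.432%), 17 more positive (0.184%) and 23 more negative (0.249%), and without DF-54-CR20 for 1. The count was also moved by more than 1.5 times by leaving out DF-109-CR40 (58), DF-104-CR40 (67), DF-110-CR40 (92), DF-58-CR20 (107), DF-103-CR40 (113) or DF-53-CR20 (308).

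Among genes called with and without DF-64-CR20, Slc25a42, a mitochondrial carrier of coenzyme A, differed most in the positive direction. It differed by 0.77 in DF mice, against -0.45 in CF, -0.52 in CM and -0.44 in DM mice, a contrast of 1.24 ± 0.23 (SE, adjusted p = 0.00977). Without DF-64-CR20 the contrast was 1.10 (adjusted p = 0.0290), and without DF-54-CR20 it was 1.24 (adjusted p = 0.0253), the single call left. Crat differed by 0.83 in DF mice, against -0.42, -0.26 and -0.49 in CF, CM and DM mice (contrast 1.22, adjusted p = 0.0192, 0.0454 without DF-64-CR20 and 0.0512 without DF-54-CR20). Selenow, a small selenoprotein, differed by 0.17 in DF mice, against -0.46, -0.71 and -0.83 (contrast 0.83), and Alpl, alkaline phosphatase, by 0.38 against -0.45, -0.34 and -0.42 (contrast 0.78). In the negative direction, Cyp3a13, a drug-metabolising P450, differed by -0.43 in DF mice, against 0.41, 0.29 and 0.79 (contrast -0.92, adjusted p = 0.0292). Wars, the tryptophan tRNA synthetase, differed by -0.56 against 0.13, 0.15 and 0.52 (contrast -0.83), Tax1bp1, an autophagy receptor, by -0.14 against 0.62, 0.51 and 0.80 (contrast -0.78), and Oxr1, an oxidation resistance protein, by -0.15 against 0.55, 0.49 and 0.69 (contrast -0.72). Without DF-64-CR20 the contrasts of Selenow, Alpl, Cyp3a13, Wars, Tax1bp1 and Oxr1 were 0.96, 0.74, -0.98, -0.73, -0.84 and -0.78, and all 6 passed, with adjusted p between 0.0241 and 0.04995. Without DF-54-CR20 the adjusted p of these last 6 lay between 0.0512 and 0.0833. With all arrays, the other tested probes of Cyp3a13 had negative contrasts but did not pass (-0.65 and -0.31, adjusted p = 0.130 and 0.502). The same held for those of Wars (-0.45 and -0.36, adjusted p = 0.0623 and 0.136). A second Crat probe passed (0.63, adjusted p = 0.0230).

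The fatty acid oxidation genes were part of this difference. In the other groups the median change of the 32 members between 20% and 40% CR was -0.24 in CF mice, -0.13 in CM mice and -0.12 in DM mice, and 6, 9 and 12 members had a change above 0. Against the mean of the other groups 6 of 32 members passed, all more positive in DF mice, where 1.21% of all tested genes did. These were Crat, Fgf21 (contrast 2.19, adjusted p = 0.0230), Pdk4 (2.46, 0.0292), Plin2 (1.80, 0.0336), Acot2 (1.27, 0.0369) and Decr1, a dienoyl-CoA reductase (1.15, 0.0208). Without DF-64-CR20 only Crat passed, with adjusted p between 0.0593 and 0.0981 for the other 5. Of all 6630 tested genes, 9 were then called as more positive in DF mice. Without DF-54-CR20 none of the 6 passed, with adjusted p between 0.0512 and 0.128, and of all 9255 tested probes 1 was called. A second Acot2 probe gave a contrast of -0.05 with all arrays (adjusted p = 0.876). Cyp4a14 did not follow the list, since it differed by 0.17 in CF mice, 0.76 in CM mice and 1.31 in DM mice.

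**Figure D5:**
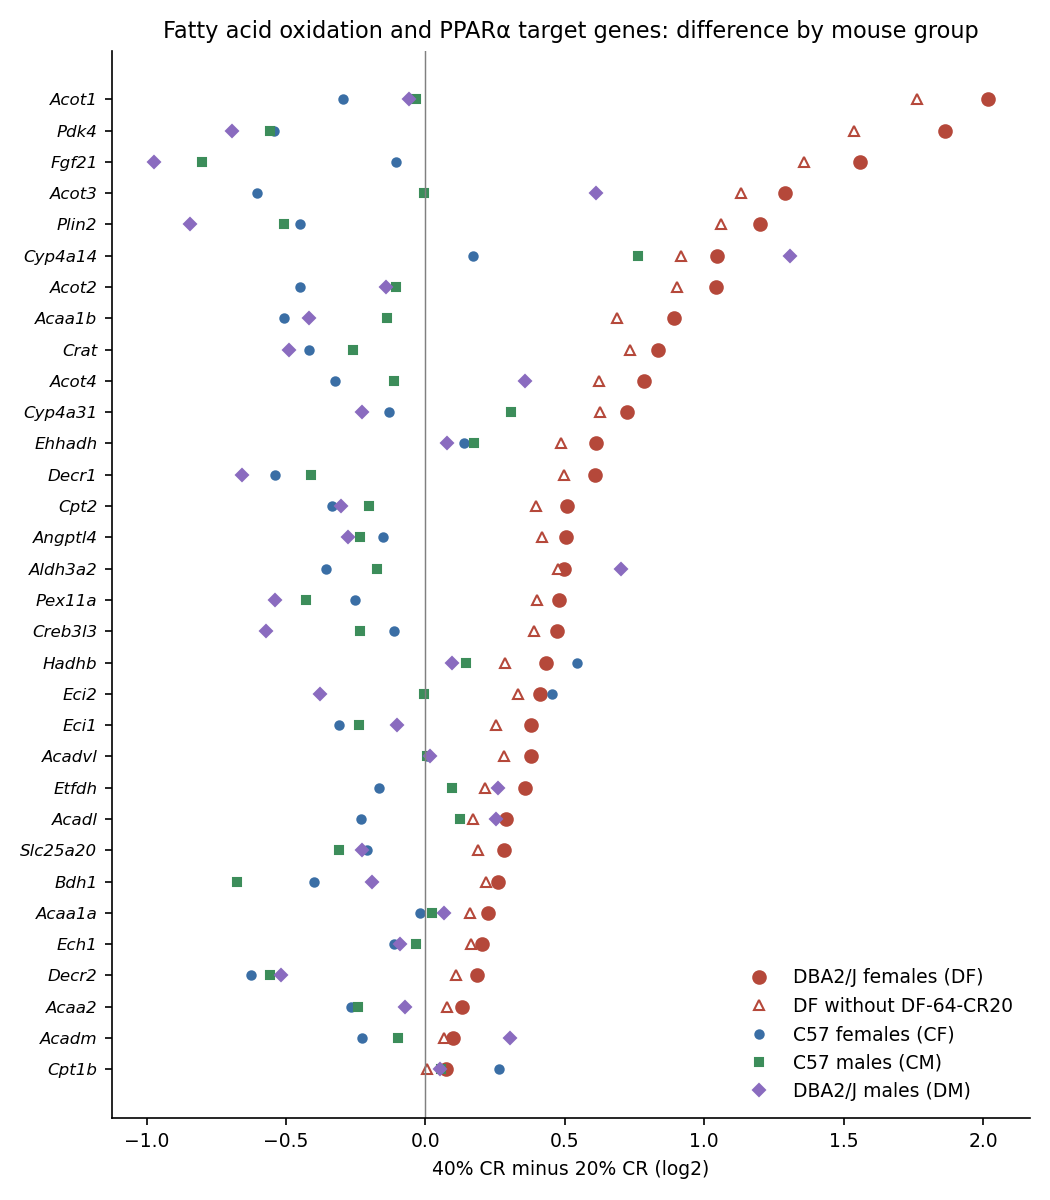
Difference between the 40% and 20% CR means (log2, horizontal axis) of the 32 tested fatty acid oxidation and PPARα target genes in DBA2/J females (red circles; open triangles without DF-64-CR20), C57BL/6J females (blue), C57BL/6J males (green) and DBA2/J males (purple). All 32 red circles lie above 0, with list medians of 0.49 in DF mice and -0.24, -0.13 and -0.12 in CF, CM and DM mice.

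Against females of the other strain, the contrast was called for 3 probes (0.0324%) with all arrays and for 3 without DF-64-CR20. Ppp2r2c, a regulatory subunit of protein phosphatase 2A, differed by 0.21 in DF mice and -0.49 in CF mice (contrast 0.69, adjusted p = 0.0341, and 0.71 and 0.0238 without DF-64-CR20). Zc3h15, a zinc finger protein, differed by 0.01 in DF mice and 0.82 in CF mice (contrast -0.81, adjusted p = 0.0333, and -0.86 and 0.0118 without DF-64-CR20). Exosc8, an exosome subunit, differed by -0.18 in DF mice and 0.77 in CF mice (contrast -0.96, adjusted p = 0.0471), and did not pass without DF-64-CR20 (contrast -0.95, adjusted p = 0.0523). Without DF-54-CR20 none of the 3 passed, each with an adjusted p of 0.0752. The count was 0 without DF-67-CR20, DF-52-CR20 or DF-109-CR40, 1 without DF-108-CR40, 6 without DF-104-CR40, 7 without DF-58-CR20, 13 without DF-103-CR40 and 40 without DF-53-CR20. Of the 32 fatty acid oxidation genes, 0 passed against CF mice, with and without DF-64-CR20, where 0.0452% of all tested genes did.

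Against males of the same strain, the contrast was called for 352 probes (3.80%), 141 more positive and 211 more negative in DF mice, for 259 (2.80%) without DF-64-CR20, for 164 without DF-54-CR20 and for 209 without DF-104-CR40. Gstp2, a glutathione transferase, differed by 0.10 in DF mice, with 4 arrays of each diet above background, and by -2.44 in DM mice (contrast 2.53, adjusted p = 0.00242, and 2.53 and 0.00488 without DF-64-CR20). Fgf21 differed by 1.56 in DF mice and -0.97 in DM mice (contrast 2.53, adjusted p = 0.0213, and 2.33 and 0.0383 without DF-64-CR20). Cyp2b10, a P450 induced through the receptor CAR, differed by -0.93 in DF mice and 1.55 in DM mice (contrast -2.48, adjusted p = 0.0378, and -2.69 and 0.0320 without DF-64-CR20). Ces2e, a carboxylesterase, differed by -0.61 in DF mice and 0.82 in DM mice (contrast -1.43, adjusted p = 0.0197, and -1.56 and 0.0139 without DF-64-CR20). Without DF-54-CR20, Gstp2 and Ces2e passed (adjusted p = 0.00578 and 0.0292), and Fgf21 and Cyp2b10 did not (adjusted p = 0.0519 and 0.0938). Of the 32 fatty acid oxidation genes, 7 passed with all arrays, all more positive in DF mice, where 1.31% of all tested genes did. These were Crat, Fgf21, Eci2, Pdk4, Plin2, Creb3l3 and Decr1, each by its brightest probe. A second Crat probe did not pass (contrast 0.53, adjusted p = 0.0886). Without DF-64-CR20 the list members that passed were Crat, Fgf21 and Decr1, where 56 of all 6630 tested genes were more positive. Without DF-54-CR20 only Crat passed (adjusted p = 0.0325), where 69 of all 9255 tested probes were more positive. One DM sample at 40% CR carries DBA in its title and the other strain in its strain label, and the comparison with DM mice includes it. On the authors' deposited z-scores the contrast with DM mice was called for 1266 probes with that sample and for 430 without it. Of the 32 fatty acid oxidation genes, 13 passed on that scale with the sample and 2 (Crat and Creb3l3) without it, all more positive in DF mice. The more positive calls over all 9255 tested probes also fell, from 238 with the sample to 68 without it. The sample also enters the mean of the other groups, against which 6 of the 32 passed on z-scores with it and 4 without it. In that comparison 42 of the 9255 tested probes were more positive with the sample and 22 without it.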

How the data were processed

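RNA from 72 livers was measured on Illumina bead arrays, and the 12 arrays of DF mice at 40% and 20% CR are described. The authors deposited probe intensities, not normalised, with detection p-values (GenomeStudio 2011.1, per the submitters' processing notes). They also deposited a score per probe and sample, which for 72 of 72 samples equalled the log10 intensity centred and scaled per array, a z-score (tolerance 1e-08). Signal columns name the group but not the GEO sample. Further upstream steps are not given in the sources used here.

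Intensities deposited by the authors were background-corrected, quantile-normalised and put on a log2 scale with neqc (offset 16) over 72 arrays. Probes with detection p under 0.01 on 6 of 12 arrays were tested with limma 3.58.1 in R 4.3.3 (lmFit, eBayes, Benjamini-Hochberg over 9255 probes, adjusted p under 0.05, two-sided), on 12 arrays and without DF-64-CR20. Contrasts with other groups used 72 arrays in 12 groups. The code was tested on simulated data. Of the tested probes, 536 had no gene symbol.

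Members and the 41 gene lists were chosen with earlier results of these data known. Named genes were those called, filled up to 6 per direction by smallest p where fewer passed, up to 4 per list by smallest p, up to 4 per direction of each contrast, and a few fixed feeding genes. Other list members, the genes highest or lowest on DF-64-CR20 and genes called in the 72-array fit were named after their values were seen. No sequence bears on these results. Alternatives were other normalisation, filters, array weights, the z-scores, a replicate block and leaving out each array.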

Additional observations from a re-analysis of the deposited data

Results flagged for a closer look

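Single arrays far from the other 5 of their group were looked for in 220 sets of 6 arrays with Dixon's ratio, which chance alone marks in about 5% of sets, and 15 were found. DF-64-CR20 accounted for 9 of them. It was high in the complement genes C1qc (11.3) and C1qb (10.9), in the macrophage receptor Adgre1 (7.10) and in the mean level of the Kupffer cell list (8.99). It was low in Prodh (7.56) and in the mean levels of the lists for oxidative phosphorylation (9.78), endoplasmic reticulum stress (7.99), heat shock proteins (8.26) and hepatocytes (12.1). In the same group DF-54-CR20 was high in Agxt (10.7). In the 40% group, DF-107-CR40 was low in Cyp4a14 (12.1), DF-110-CR40 high in S100a8 (8.91), DF-109-CR40 low in Hpd (11.6), DF-103-CR40 low in Wars (5.06) and DF-104-CR40 low in the mean level of the Kupffer cell list (7.08).

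Other genes stood out because their difference between 40% and 20% CR in DF mice departed from that of other mice by a test of the contrast itself in limma. Against the mean of the other 3 groups the contrast was positive for Slc25a42 (1.24), Crat (1.22), Selenow (0.83), Alpl (0.78), Fgf21 (2.19), Pdk4 (2.46), Acot2 (1.27), Plin2 (1.80) and Decr1 (1.15). It was negative for Cyp3a13 (-0.92), Wars (-0.83), Tax1bp1 (-0.78) and Oxr1 (-0.72). The other tested probes of Acot2, Cyp3a13 and Wars did not pass. Against CF mice it was 0.69 for Ppp2r2c, -0.81 for Zc3h15 and -0.96 for Exosc8. Against DM mice it was positive for Fgf21 (2.53), Gstp2 (2.53), Crat (1.32), Eci2 (0.79), Pdk4 (2.56), Plin2 (2.05), Creb3l3 (1.04) and Decr1 (1.27), and negative for Cyp2b10 (-2.48) and Ces2e (-1.43).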

How the results depend on the processing

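The comparison of 40% with 20% CR called 0 probes under every alternative run, except 3 in the fit of 72 arrays and 0 to 1 when 1 array was left out. The 748 probes at an unadjusted p under 0.05 became 1449 with no filter, which tests all 25697 probes, and 552 to 946 without 1 array. On the authors' z-scores, where the median of all probes was -0.03, 33.3% of 855 such probes were higher, against 57.1% on the log2 scale. With array weights 48.6% were higher, and without DF-64-CR20 45.7%. The labels give replicate numbers for the z-score columns and not for the signal columns. With the replicate block 1137 probes had an unadjusted p under 0.05 (389 higher, 748 lower) and 0 an adjusted one. Of 6 same-numbered pairs 3 correlated over 0.1 and 2 samples correlated best with their own number, so the numbers were not taken as pairs. Over the arrays left out in turn, the count of fatty acid oxidation genes ranged from 15 to 24 and that of interferon genes from 7 to 16. The 108 list medians recomputed were of the fatty acid oxidation, interferon, antigen-presentation, Kupffer cell, neutrophil and endoplasmic reticulum stress lists. All kept their sign and moved by less than the SD of the list's mean level within groups. DF-64-CR20 widens that SD, so the limit is loose. Without that array the medians moved from -0.53 to -0.32 (interferon), -0.48 to -0.28 (antigen presentation) and -0.54 to -0.23 (Kupffer cell).

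The contrast with the mean of the other groups was called for 173 probes, and for 40 without DF-64-CR20. This count became 59 with no filter, 285 with array weights and 1 to 308 without 1 array. On z-scores it was 122, and 60 without the sample with 2 strain labels. The contrast with CF mice, 3 probes, became 15 without background correction, 17 on z-scores with or without that sample, 53 with no filter, 84 with array weights and 0 to 40 without 1 array. The contrast with DM mice, 352 probes, became 1266 on z-scores, 187 with no filter, 963 with array weights and 164 to 527 without 1 array. The causes of these shifts were not tested.

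The sign turned for 6 genes, each with a 95% interval of the difference that held 0 with all 12 arrays. Zc3h15 gave -0.0446 without DF-64-CR20, -0.0713 on z-scores with and without the block, -0.0364 with array weights and -0.0771 to 0.108 without 1 array. Cyp7a1 gave 0.0743 with array weights and -0.450 to 0.363 without 1 array. Igf1 gave 0.145 on z-scores and -0.0402 to 0.0332 without 1 array other than DF-64-CR20, and Arntl -0.0181 and -0.0589 to 0.184. Without 1 array Cyp2b13 gave -0.112 to 0.354 and Igfbp1 -0.00859 to 0.461. Of the other alternatives, 1437 values of single genes kept their sign and did not pass, as none had with all 12 arrays, and 5 newly passed. Of the contrasts of single genes 357 kept their call and 106 lost it. Dim probes and 6 arrays per group limit the precision.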

Other observations

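On DF-109-CR40 further exocrine pancreas enzymes stood above the other 11 arrays of DF mice at 40% and 20% CR. Pnliprp1, a lipase-related protein, read 7.46, the chymotrypsinogen Ctrb1 7.31, carboxypeptidase Cpa1 7.23 and the bile salt-stimulated lipase Cel 7.14, against at most 4.74, 4.79, 4.60 and 4.33. Among genes outside the lists, Vcam1, an endothelial adhesion molecule, averaged 7.68 ± 0.36 in the 40% group and 8.55 ± 0.70 in the 20% group, and Mlkl, the effector of necroptosis, 5.11 ± 0.29 in the 40% group and 5.81 ± 0.49 in the 20% group. In both genes all 40% arrays lay below all 20% arrays, as in 0.226% of genes, and the differences were -0.87 and -0.70, or -0.62 and -0.52 without DF-64-CR20. Both were chosen after their values were seen.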
